A study of Homo sapiens with 14 samples.

Results

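The comparison set 3 libraries of HEK 293 cells overexpressing CFIm68 against 3 libraries of the same line overexpressing CFIm25. It used 6 of the 14 libraries of the series, chosen by their genotype label, and every expressed gene. Of 18006 genes in the table, 12080 had enough reads to be tested. HEK 293 is a line derived from human embryonic kidney and carries adenoviral genes. The control cells are labelled wild type and gave 3 libraries. The series also has 2 libraries of cells with CFIm25 knockdown and 3 with CFIm68 knockdown, both made with siRNA. The transfection protocol for siRNA is attached to every sample, the controls and both overexpression groups included. The design text speaks of cell lines for overexpression. The construct, its promoter, the selection and the number of clones behind each line were not found in the labels. Differences between the lines can therefore not be told apart from effects of the overexpressed subunit. The labels do not tell whether libraries of a group are separate cultures. The p-values therefore measure only how these libraries vary, which may be a technical spread.

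CFIm, cleavage factor I of mammals, is part of the machinery that cuts nuclear pre-mRNA and adds the poly(A) tail. CFIm25, encoded by NUDT21, forms a dimer that binds UGUA elements upstream of cleavage sites. It is joined by a larger subunit, either CFIm68, encoded by CPSF6, or CFIm59, encoded by CPSF7. CFIm is known for favouring distal poly(A) sites, so that its loss shortens the 3' ends of many mRNAs. The counts analysed here are totals per gene and do not show which poly(A) site was used.

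The 6 libraries held between 15822467 and 23125253 counts, and the control libraries between 17734490 and 18385536. Log2 values of CPM, read counts scaled to a common library total with TMM factors, correlated across genes at 0.993 to 0.995 within an overexpression group and at 0.959 to 0.966 between the groups. All 12 listed markers of HEK 293 had reads in both groups, and they summed to 2137 to 2308 CPM in CFIm25 overexpression and 2064 to 2119 CPM in CFIm68 overexpression. Of them 5 were higher, 5 lower and 2 not past the test between the groups, and the lower ones numbered 2 without CFIm68 library 3 and 3 without CFIm25 library 1. Of 11 mature kidney markers, 6 were at 0 reads in each overexpression group, and the sums of 151.8 to 165 CPM with CFIm25 and 186 to 199 CPM with CFIm68 were mostly LRP2. Keratinocyte and HeLa-type epithelial markers summed to 683.5 to 713 CPM with CFIm25 and 647 to 672 CPM with CFIm68, fibroblast markers to 74.0 to 84.4 and 67.2 to 69.9 CPM, and blood and endothelial markers to 0.908 to 1.56 and 2.23 to 2.38 CPM. Their part in the results was not tested.

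The overexpressed genes followed their labels in direction. CPSF6, on chromosome 12, stood at 717, 750 and 724 CPM in the CFIm68 overexpression libraries and at 263, 256 and 237 CPM in the CFIm25 overexpression libraries. The controls were at 274, 262 and 268 CPM, so only the CFIm68 group stood apart. The difference was 1.53 ± 0.05 log2 units (SE, n = 3 against 3), or 2.89-fold, with an adjusted p of 6.0e-21 in edgeR's quasi-likelihood test with Benjamini-Hochberg adjustment over all tested genes. NUDT21, on chromosome 16, stood at 782, 734 and 671 CPM in the CFIm25 overexpression libraries. It was at 646, 597 and 550 CPM in the CFIm68 overexpression libraries and at 537, 500 and 506 CPM in the controls. The lowest CFIm25 library was above the highest CFIm68 library, and both groups were above the controls. NUDT21 was thus lower in CFIm68 overexpression by a log2 difference of -0.29 ± 0.06 (edgeR adjusted p = 7.2e-05). Against control, NUDT21 was higher by 0.50 ± 0.06 in CFIm25 overexpression and CPSF6 by 1.45 ± 0.05 in CFIm68 overexpression. CPSF7 was at 277, 253 and 283 CPM with CFIm25 and at 296, 282 and 301 CPM with CFIm68. These values overlap and the difference of 0.11 ± 0.05 did not pass (edgeR adjusted p = 0.058), but it passed without CFIm68 library 2 (0.041) or without CFIm25 library 3 (0.029).

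Most expressed genes differed between the overexpression groups. At an adjusted p under 0.05, 7699 of 12080 genes passed (63.7%), of which 3976 were higher (32.9%) and 3723 lower (30.8%) in CFIm68 than in CFIm25 overexpression. The 3 values of each group did not overlap for 7713 genes (63.8%). Many differences were small: 63.3% of the genes past the test differed by less than 1.5-fold, and the median over all tested genes was 0.01 log2 units. Differences of 2-fold or more were found for 450 higher genes (3.73%) and 728 lower genes (6.03%).

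**Figure D1:**
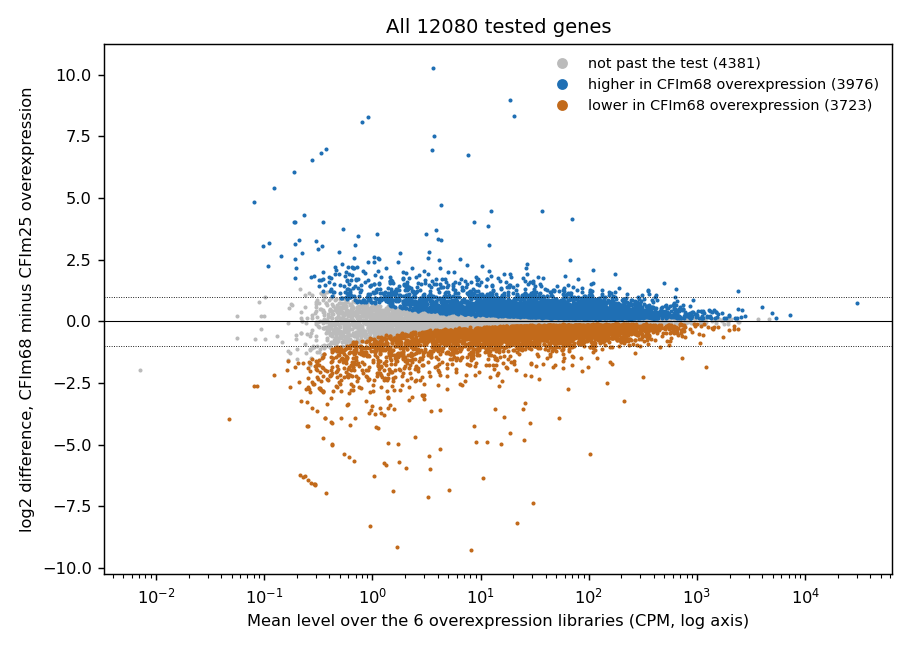
Mean level over the 6 overexpression libraries (CPM, log axis) against the log2 difference, CFIm68 minus CFIm25 overexpression, for each of the 12080 tested genes. Blue points are the 3976 higher genes, orange points the 3723 lower genes and grey points those not past the test, the dotted lines mark 2-fold, and genes with very large differences lie at low and middle levels.

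A small set of genes was close to silent in 1 overexpression group and expressed in the other. The rule was under 1 CPM in all 3 libraries of 1 group and at least 5 CPM in all 3 libraries of the other, and 24 genes met it (0.199%). Of these, 11 were low in CFIm25 overexpression (ADHFE1, CD99, CYP7B1, HSPA1L, PCDH20, PLPP2, PNMA8A, PURPL, SERPINB9, VEGFC and ZNF785). The other 13 were low in CFIm68 overexpression (ASTN1, ATP2B3, BEST1, FAM184B, IQCA1, PDGFD, RAB17, SLFN12, STS, TPTE, ZNF600, ZNF667 and ZNF83). In the controls all 11 genes of the first set and 11 of the 13 of the second were above 1 CPM in every library. In bulk RNA, fewer cells that express a gene and less RNA per cell cannot be told apart.

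The bases before the start sites of 4 of the genes with the largest differences are shown because CG dinucleotides, the sites of DNA methylation, are dense in many promoters. No methylation was measured. The sequences are RefSeq's (GRCh38.p14), cover 250 bases upstream of RefSeq's start on the strand of the gene, and have CG in capitals. In GENCODE release 29, whose gene positions are used elsewhere in the text, GSTP1 and SLFN12 start further upstream, so most of the GSTP1 window and part of the SLFN12 window lie inside the GENCODE gene.
SLFN12, chr17:35433175-35433424, minus strand: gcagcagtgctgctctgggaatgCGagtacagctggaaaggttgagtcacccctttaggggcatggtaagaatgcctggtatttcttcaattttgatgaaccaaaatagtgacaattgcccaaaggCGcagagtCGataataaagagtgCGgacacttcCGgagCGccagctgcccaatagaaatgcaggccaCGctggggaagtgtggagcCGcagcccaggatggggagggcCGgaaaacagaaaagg
ZNF83, chr19:52690497-52690746, minus strand: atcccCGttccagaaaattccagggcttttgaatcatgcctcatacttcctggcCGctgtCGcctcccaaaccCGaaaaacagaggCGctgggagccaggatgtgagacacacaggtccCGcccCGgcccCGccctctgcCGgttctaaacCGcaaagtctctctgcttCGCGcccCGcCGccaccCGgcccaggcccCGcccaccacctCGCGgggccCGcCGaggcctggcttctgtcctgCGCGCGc
PNMA8A, chr19:46471564-46471813, minus strand: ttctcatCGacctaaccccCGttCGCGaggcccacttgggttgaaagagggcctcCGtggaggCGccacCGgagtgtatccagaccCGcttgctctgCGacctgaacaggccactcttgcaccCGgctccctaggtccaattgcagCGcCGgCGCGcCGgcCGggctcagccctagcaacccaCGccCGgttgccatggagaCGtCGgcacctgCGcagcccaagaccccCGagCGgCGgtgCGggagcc
GSTP1, chr11:67583562-67583811, plus strand: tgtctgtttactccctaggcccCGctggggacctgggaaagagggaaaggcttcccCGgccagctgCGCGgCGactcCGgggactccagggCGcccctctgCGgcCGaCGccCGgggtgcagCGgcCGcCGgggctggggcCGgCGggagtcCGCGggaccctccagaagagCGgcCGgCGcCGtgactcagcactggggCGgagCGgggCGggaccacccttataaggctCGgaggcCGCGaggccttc
SLFN12 had 9 CG in this window, ZNF83 23, PNMA8A 25 and GSTP1 28. A promoter was matched for 8 of the 11 genes low in CFIm25 overexpression and 10 of the 13 low in CFIm68 overexpression, and 7 in each set held 10 or more CG (87.5% and 70%). The share was 84.4% over the 9773 tested genes with a promoter entry, so the shares in both sets were near that of tested genes at large, with few genes behind them.

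Among genes lower in CFIm68 overexpression, SLFN12, a member of the Schlafen family, had 1 read in the 3 CFIm68 libraries together and 948 in the 3 CFIm25 libraries. Its levels were 0, 0 and 0.0627 CPM against 16.5, 15.7 and 16.6 CPM, with controls at 8.85, 9.56 and 7.93 CPM. The ratio of the scaled reads was 803, with a 95% exact interval of 144 to 31700 that covers counting error only. ZNF83, a zinc finger gene on chromosome 19, was at 0.130, 0.167 and 0.126 CPM with CFIm68 and at 47.2, 39.4 and 43.0 CPM with CFIm25. Its controls, at 9.53, 10.6 and 9.70 CPM, lay between, and the log2 difference was -8.19 ± 0.19 (edgeR adjusted p = 5.6e-24). PDGFD, a platelet-derived growth factor, was at 0.325, 0.223 and 0.565 CPM against 66.6, 58.6 and 56.6 CPM, a log2 difference of -7.35 ± 0.15 (edgeR adjusted p = 2.6e-25). It shares exonic bases with a gene on the opposite strand, and no label or header tells whether the counting used strand.

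For these genes the low group was far under the controls and the other group above them. Controls also lay between the groups for PCDH19 and RAB39B, but near 1 of the groups for STS and TPTE. PCDH19, an X-linked protocadherin, was at 5.26, 4.57 and 4.77 CPM with CFIm68, 218, 188 and 197 CPM with CFIm25, and 43.9, 45.2 and 41.1 CPM in the controls. All 3 groups were apart, and the difference between the overexpression groups was -5.37 ± 0.08 (edgeR adjusted p = 3.7e-28). RAB39B, a small GTPase gene of the X chromosome, was at 2.99, 3.12 and 3.39 CPM against 57.5, 52.7 and 53.6 CPM, with controls at 12.5, 14.9 and 12.7 CPM. STS, the steroid sulfatase gene, was at 0.975, 0.835 and 0.753 CPM against 16.8, 17.5 and 14.9 CPM, and its controls at 14.5, 14.2 and 13.1 CPM were near the CFIm25 values. For TPTE the controls lay with the CFIm68 group: it was at 11.02, 8.71 and 10.3 CPM with CFIm25, at 0.260, 0 and 0 CPM with CFIm68, and at 0.0567, 0.0546 and 0.0554 CPM in the controls. TPTE shares exonic bases with another gene on its strand, as do ZNF816, ZNF808 and ZNF468 among the 15 lower genes with the largest differences. The counts of these genes are uncertain to that extent. Besides PDGFD, exonic overlap with a gene on the opposite strand was found for ZNF667, FAM184B and REC8. It was also found for genes named elsewhere, among them CPSF6, SLC7A11, SPARC and NAPRT. The other lower genes chosen by size were ZNF667 at -6.37 ± 0.23, FAM184B at -4.89 ± 0.20, ZNF681 at -4.52 ± 0.14, REC8, a meiotic cohesin subunit, at -3.91 ± 0.09, and AMBN, which encodes the enamel protein ameloblastin, at -3.88 ± 0.14.

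Among genes higher in CFIm68 overexpression, PNMA8A, a paraneoplastic antigen family gene, was at 38.9, 39.1 and 34.9 CPM against 0.0429, 0.113 and 0.0580 CPM in CFIm25 overexpression. The controls, at 12.6, 12.2 and 9.43 CPM, lay between, and the log2 difference was 8.98 ± 0.22 (edgeR adjusted p = 1.7e-23). CD99, a surface glycoprotein gene, was at 42.6, 40.6 and 39.3 CPM against 0.0429, 0.170 and 0.174 CPM. Here the controls, at 51.9, 58.7 and 61.0 CPM, were above both groups, and the difference was 8.34 ± 0.18 (edgeR adjusted p = 1.1e-24). ZNF785 had 358 reads with CFIm68 and none in the 3 CFIm25 libraries. With a floor of 3 reads over the group in place of none, its ratio was 141. The lower end of the 95% exact interval was 114-fold. GSTP1, a glutathione transferase, was at 128, 135 and 135 CPM against 7.12, 7.92 and 7.65 CPM, a difference of 4.14 ± 0.07 (edgeR adjusted p = 6.3e-27). Its controls, at 124, 120 and 136 CPM, overlapped the CFIm68 libraries.

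STAT6, the transcription factor that acts downstream of interleukin-4, was at 66.1, 76.2 and 71.6 CPM against 3.43, 3.22 and 3.01 CPM, with controls at 41.4, 42.0 and 45.5 CPM. IFI16, a nuclear DNA sensor, was at 25.1, 23.2 and 23.2 CPM against 1.16, 1.02 and 0.985 CPM. SERPINB9, the granzyme B inhibitor, was at 15.4, 16.2 and 14.4 CPM against 0.257, 0.0566 and 0.0580 CPM. In each of these 3 genes the CFIm68 libraries were all above the controls and the CFIm25 libraries all below them. SFRP2, a secreted WNT antagonist, was higher by 2.33 ± 0.09, INPP5D, the SHIP1 phosphatase, by 2.23 ± 0.14, and CACNA1H, a T-type calcium channel subunit, by 2.16 ± 0.09. CXXC4 (4.01 ± 0.19), TMEM200B (3.86 ± 0.13), MXRA8 (3.09 ± 0.15), CTSO (2.53 ± 0.19), NAPRT (2.49 ± 0.10) and ADAMTS2 (2.27 ± 0.14) completed the 15 higher genes.

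**Figure D2:**
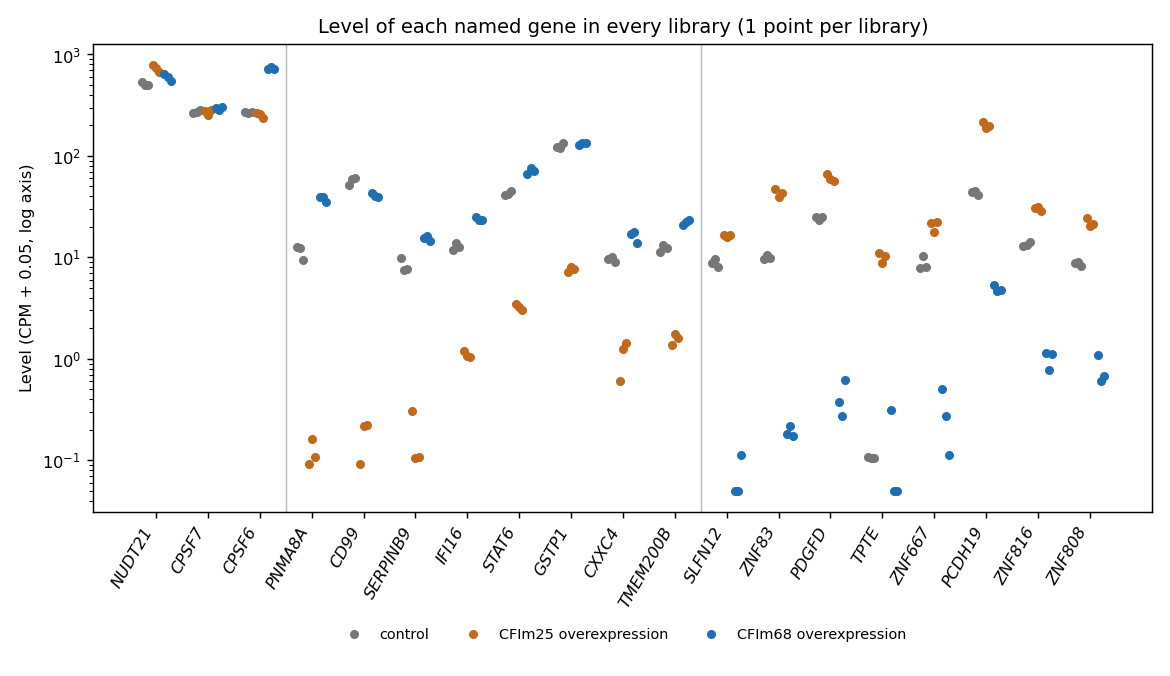
Level of CFIm subunit genes (left), 8 genes higher in CFIm68 overexpression (middle) and 8 lower genes (right) in each control, CFIm25 overexpression and CFIm68 overexpression library, as CPM plus 0.05 on a log axis. The points of a group lie close together, apart from some at the lowest levels, such as TPTE and ZNF667 with CFIm68 and SERPINB9 with CFIm25. CPSF6 stands apart in the CFIm68 group alone, and the controls of most of the other genes lie between the overexpression groups.

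The control position can be read only as a description, since each comparison with the controls shares libraries with the comparison that chose the genes. The 450 genes that were at least 2-fold higher in CFIm68 than in CFIm25 overexpression had a median log2 difference from control of -0.93 in CFIm25 and 0.41 in CFIm68 overexpression. The 728 genes at least 2-fold lower had medians of 0.93 and -0.64. Over all genes, CFIm25 overexpression against control called 3343 genes higher (27.7%) and 3511 lower (29.1%). CFIm68 overexpression against control called 1746 higher (14.5%) and 1859 lower (15.4%). The same 3 control libraries serve both.

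The gene lists below are groups of known function. Their counts are to be read against the 32.9% higher and 30.8% lower over all tested genes. The ATF4 pathway is the response to amino acid shortage and other stress, in which the transcription factor ATF4 raises genes for amino acid synthesis, transport and tRNA charging. Of 33 tested members, 1 was higher in CFIm68 than in CFIm25 overexpression, 28 were lower and 4 did not pass. The median was -0.62, against 0.01 over all tested genes. SLC7A11, the cystine transporter, was at 613, 468 and 485 CPM with CFIm25, 111, 107 and 107 CPM with CFIm68, and 85.1, 85.5 and 74.3 CPM in the controls. It was lower by a log2 difference of -2.27 ± 0.11 (edgeR adjusted p = 3.5e-16), and every CFIm25 library was above every other one. ATF3, a stress-induced transcription factor, was at 33.8, 31.4 and 35.5 CPM against 7.73, 9.30 and 8.34 CPM, a difference of -1.98 ± 0.10. The asparagine synthetase gene ASNS was at a mean of 1069 ± 67.3 CPM (SD, n = 3) with CFIm25 and 380 ± 18.1 CPM with CFIm68, and controls averaged 257 CPM. DDIT3 differed by -1.74, CHAC1 by -1.93 and PSAT1 by -0.79. ATF4 mRNA itself was at 294 ± 21 and 288 ± 14 CPM and did not pass (-0.03 ± 0.06, edgeR adjusted p = 0.71). ALDH1L2 was the member that was higher, by 0.17 ± 0.07 (edgeR adjusted p = 0.034), a call that was lost without CFIm68 library 1 (adjusted p = 0.10) or 2 (0.072), or without CFIm25 library 1 (0.050) or 2 (0.21). Against control, 31 members were higher and 0 lower with CFIm25, and 21 were higher and 2 lower with CFIm68.

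The cholesterol and fatty acid synthesis list, genes largely driven by SREBP transcription factors, moved the other way: 24 of 32 tested members were higher, 4 lower and 4 did not pass, with a median of 0.64. FASN, fatty acid synthase, was at 2994, 3303 and 3617 CPM with CFIm68, 1274, 1557 and 1448 CPM with CFIm25, and 3361, 3226 and 3194 CPM in the controls. The CFIm68 libraries overlapped the controls and the CFIm25 libraries were lower than both, and the difference was 1.21 ± 0.07 (edgeR adjusted p = 6.1e-15). SQLE, squalene epoxidase, was higher by 1.22 ± 0.07. The 4 lower members included SREBF1, the gene of SREBP1 itself (-0.41 ± 0.07), and ACLY (-0.32 ± 0.05). Neither of these differences passed once the medians of neighbouring genes were removed, as described further on. Against control, 1 member was higher and 24 lower with CFIm25, and 12 were higher and 6 lower with CFIm68.

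Protein folding genes were mostly higher in CFIm68 overexpression. Of 17 tested heat shock genes, 12 were higher, 1 lower and 4 did not pass, with a median of 0.57. DNAJA1, an HSP40 co-chaperone, was at 295, 271 and 250 CPM with CFIm68 and at 115, 105 and 98.0 CPM with CFIm25, while the controls were at 310, 275 and 307 CPM. The difference was 1.36 ± 0.07 (edgeR adjusted p = 3.0e-16). HSPH1, an HSP110 nucleotide exchange factor, was at 550, 483 and 480 CPM against 232, 203 and 188 CPM (1.28 ± 0.06). HSPA14 was the member that was lower (-0.30 ± 0.06), and it shares exonic bases with other genes on both strands. Against control, 1 heat shock gene was higher and 13 lower with CFIm25, and 3 were higher and 3 lower with CFIm68. Of 24 tested chaperones and unfolded protein response genes of the endoplasmic reticulum, 13 were higher, 6 lower and 5 not past (median 0.20). HSPA5, the chaperone BiP, was at 938, 879 and 912 CPM against 385, 373 and 341 CPM, with controls at 858, 873 and 911 CPM. It was higher by 1.31 ± 0.05 (edgeR adjusted p = 6.4e-19) and PDIA3, a disulfide isomerase, by 0.63 ± 0.05, whereas ERN1, the stress sensor IRE1, was lower (-0.58 ± 0.07).

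Of 76 tested nuclear-encoded subunits of oxidative phosphorylation, 50 were higher in CFIm68 overexpression, 7 lower and 19 not past (median 0.27). UQCRH, a complex III subunit, was at 423, 418 and 426 CPM against 242, 229 and 209 CPM, with controls at 333, 309 and 344 CPM (0.90 ± 0.05). UQCRC1, of the same complex, was lower, at 277, 295 and 301 CPM against 378, 422 and 399 CPM (-0.46 ± 0.05). CYC1, cytochrome c1, was higher by 0.99 ± 0.06, but its difference was -0.02 when the medians of neighbouring genes were removed. Against control, 5 members were higher and 57 lower with CFIm25, and 9 were higher and 10 lower with CFIm68. Of 75 cytosolic ribosomal protein genes, 37 were higher, 13 lower and 25 not past (median 0.12). Of 76 mitochondrial ribosomal protein genes, 34 were higher, 20 lower and 22 not past (median 0.15). Ribosomal protein genes have many processed pseudogenes, and no label or header tells how reads shared with them were counted.

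Zinc finger genes named ZNF form the largest list. They encode DNA-binding proteins, many with a KRAB domain that represses transcription, and many lie in clusters on chromosome 19. Of 378 tested, 51 were higher in CFIm68 overexpression (13.5%), 191 lower (50.5%) and 136 not past (median -0.31). Over all tested genes 32.9% were higher and 30.8% lower, and in the ATF4 list 84.8% were lower. On chromosome 19, 115 of 182 ZNF genes were lower (63.2%) and 7 higher (3.85%), with a median of -0.48. Elsewhere in the genome 76 of 196 were lower (38.8%) and 44 higher (22.4%), with a median of -0.14. The 685 other tested genes of chromosome 19 were lower in 202 cases and higher in 243, with a median of 0.03. At least 2-fold lower were 39 of the chromosome 19 ZNF genes, 16 of those elsewhere and 38 of the other genes of that chromosome. Against control, the ZNF genes of chromosome 19 had a median of 0.41 with CFIm25 and -0.09 with CFIm68, and those elsewhere 0.18 and 0.06. Members of these clusters are similar in sequence, and the counting of reads that match several of them is likewise unknown.

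Genes of the study's own subject, 3' end processing, showed no common direction. Of 21 tested, 9 were higher (42.9%), 6 lower (28.6%) and 6 not past (median 0.11), against 32.9% and 30.8% over all tested genes. CPSF2, the CPSF100 subunit, was at 228, 215 and 204 CPM with CFIm68 and 389, 339 and 351 CPM with CFIm25 (-0.74 ± 0.05, edgeR adjusted p = 2.1e-12), a difference that came to -0.26 after removal of the medians of neighbouring genes. CPSF3, the endonuclease, was lower by -0.49 ± 0.05, and at -0.05 after that removal. CPSF1 was higher by 0.66 ± 0.06, but became lower, at -0.32, after that removal, and it shares exonic bases with other genes on both strands. Of 11 tested genes known from the literature as mRNAs whose poly(A) site depends on CFIm, 4 were higher, 5 lower and 2 not past. The lower genes included VMA21, GSK3B, DICER1 and PAK1, by -0.56, -0.52, -0.49 and -0.25 log2 units. Without the CFIm68 overexpression library 3 the lower members numbered 3, and they numbered 1 after removal of the medians of neighbouring genes. FHL1 was at 195, 202 and 199 CPM against 130, 134 and 139 CPM (0.56 ± 0.05), and CXXC5 was higher by 1.01 ± 0.13.

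Of 25 tested genes of microRNA processing and silencing, a process named in the title of the series, 17 were higher, 3 lower and 5 not past (median 0.26). The RNA helicase gene DDX17, a cofactor of the Microprocessor, was at 215, 238 and 227 CPM with CFIm68 and at 152, 134 and 150 CPM with CFIm25 (0.64 ± 0.06, edgeR adjusted p = 6.5e-11). SRRT, which encodes ARS2 and links the RNA cap to microRNA processing, was at 339, 357 and 372 CPM against 248, 254 and 233 CPM (0.54 ± 0.06). The Microprocessor genes DROSHA and DGCR8 were higher by 0.13 ± 0.05 and 0.38 ± 0.06, the export receptor XPO5 by 0.16 ± 0.04, and AGO1 and AGO2, which bind mature microRNAs, by 0.54 ± 0.09 and 0.53 ± 0.08. DICER1, the deadenylase gene PAN2 (-0.21 ± 0.07) and the scaffold of the CCR4-NOT deadenylase CNOT1 (-0.16 ± 0.05) were lower, CNOT1 not passing without CFIm68 library 3 (edgeR adjusted p = 0.071). With the medians of neighbouring genes removed, 9 members were higher and 6 lower. The values given for DROSHA, DGCR8, XPO5, AGO1, AGO2 and DICER1 are from before that removal, and include any shift shared with neighbouring genes. Without the CFIm68 overexpression library 3 the lower members of the list numbered 1.

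Signalling lists, the other process in the title, were mixed, and several had shares near the 32.9% higher and 30.8% lower over all tested genes. These were the RAS-MAPK (39.4% and 30.3%), TGF-beta and BMP (34.4% and 31.25%) and Hippo-YAP (27.3% and 31.82%) lists. Of 29 NOTCH genes 15 were higher, 4 lower and 10 not past (median 0.19). The receptor gene NOTCH1 was at 75.4, 78.8 and 87.4 CPM with CFIm68 and 32.9, 41.6 and 42.4 CPM with CFIm25, a difference of 1.06 ± 0.08, while the target gene HES1 was lower (-0.65 ± 0.07). Of 25 WNT genes 10 were higher, 6 lower and 9 not past (median 0.13), with the receptor gene FZD5 higher by 0.95 ± 0.06 and LGR5, a receptor for R-spondins, lower by -0.95 ± 0.06. Of 33 RAS-MAPK genes 13 were higher, 10 lower and 10 not past (median 0.10). FOSL1, an AP-1 subunit gene, was at 5.59, 5.51 and 4.39 CPM against 1.63, 1.08 and 1.33 CPM (1.91 ± 0.19). Of 32 PI3K-AKT-mTOR genes 10 were higher, 14 lower and 8 not past (median -0.11), AKT1 being lower by -0.53 ± 0.05 and MLST8, a subunit of both mTOR complexes, higher by 0.86 ± 0.06. With the medians of neighbouring genes removed, these came to -0.18 and 0.27, HES1 came to -0.28, and the RAS-MAPK genes to 8 higher and 6 lower. Of 32 TGF-beta and BMP genes 11 were higher, 10 lower and 11 not past, and of 22 Hippo-YAP genes 6, 7 and 9, the lower ones numbering 4 after the same removal.

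**Figure D3:**
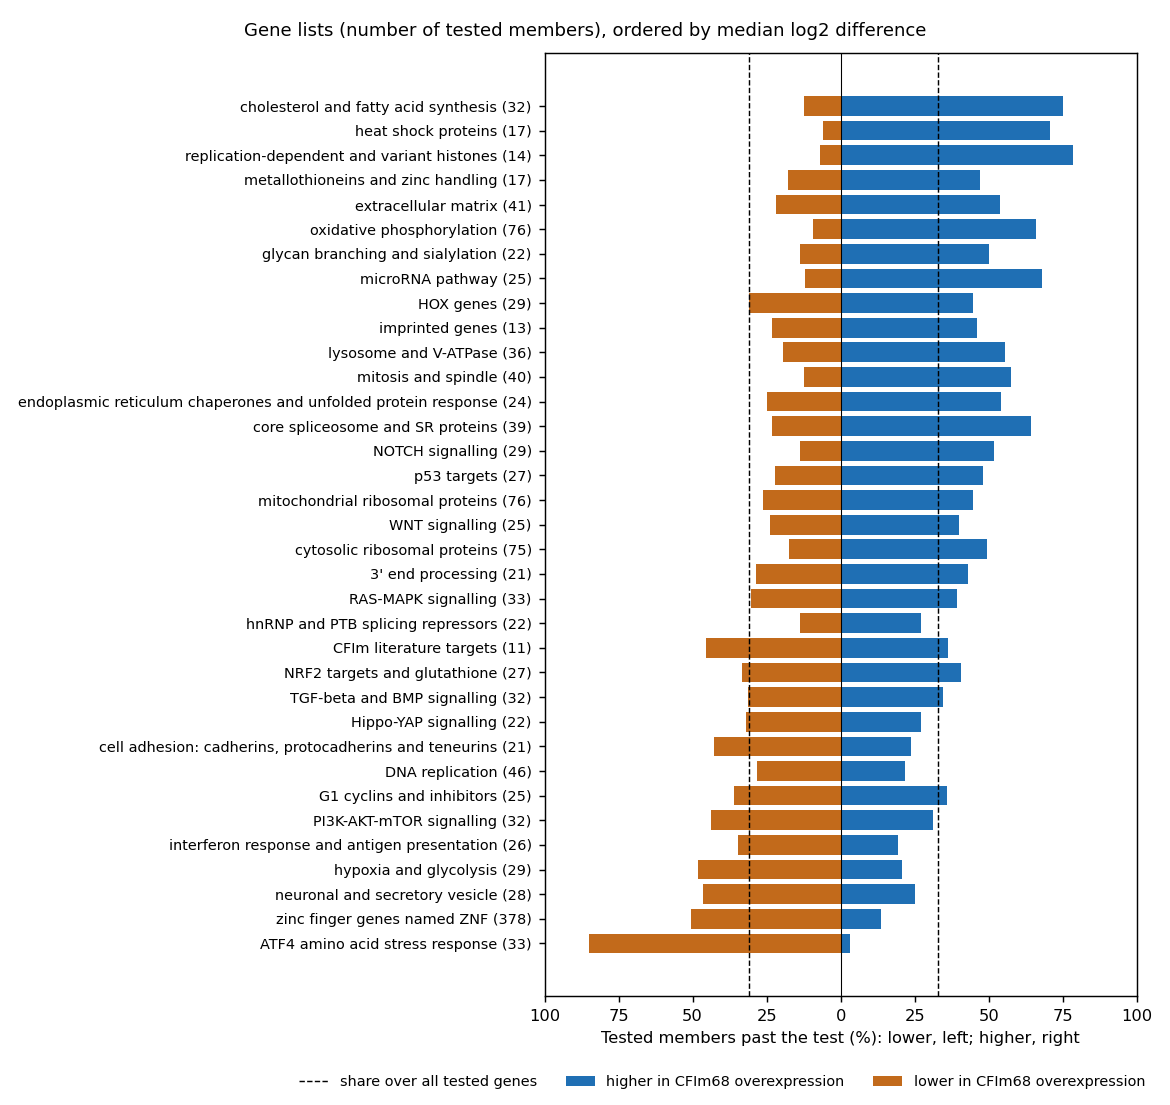
Share of each gene list's tested members that were higher (right, blue) or lower (left, orange) in CFIm68 than in CFIm25 overexpression, with dashed lines at the shares over all tested genes, 32.9% and 30.8%. The ATF4 list (28 of 33 lower) and the zinc finger genes (191 of 378 lower) extend to the left, and the cholesterol (24 of 32), heat shock (12 of 17) and oxidative phosphorylation (50 of 76) lists to the right.

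Cell growth and matrix lists held some of the larger single differences. CDKN1A, the cell cycle inhibitor p21, was at 41.3, 42.2 and 45.0 CPM with CFIm68, 10.6, 15.2 and 16.9 CPM with CFIm25, and 34.1, 35.5 and 29.7 CPM in the controls. It was higher by 1.61 ± 0.11 (edgeR adjusted p = 2.0e-13), in a p53 target list of which 13 of 27 were higher, 6 lower and 8 not past (median 0.18). Of 40 mitosis genes 23 were higher, 5 lower and 12 not past (median 0.21), with the checkpoint kinase gene BUB1 at 207, 203 and 202 CPM against 123, 123 and 116 CPM (0.76 ± 0.05). Of 46 DNA replication genes 10 were higher (21.7%), 13 lower (28.3%) and 23 not past, against 32.9% and 30.8% over all tested genes. With the medians of neighbouring genes removed they were 5 higher and 22 lower, and with the 6 overexpression libraries fitted alone 6 were higher. Of 41 extracellular matrix genes 22 were higher, 9 lower and 10 not past (median 0.29). SPARC, a collagen-binding glycoprotein, was at 274, 276 and 282 CPM against 74.9, 77.2 and 68.4 CPM, with controls at 210, 231 and 223 CPM (1.92 ± 0.05, edgeR adjusted p = 6.1e-22). COL18A1 was higher by 1.71 ± 0.09 and COL5A2 lower by -1.83 ± 0.07.

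Differences were not spread evenly along the genome. On chromosome 3, 482 of 677 tested genes were lower in CFIm68 overexpression (71.2%) and 37 higher, with a median of -0.46. Chromosomes 20 and 14 had 56.2% and 56.7% of genes lower. On chromosome 16, 312 of 549 genes were higher (56.8%) and 63 lower, with a median of 0.28. Chromosome 3 genes had medians against control of 0.29 with CFIm25 and -0.16 with CFIm68. In the comparison of CFIm68 with CFIm25 knockdown, which shares no library with the overexpression groups, the median of chromosome 3 was 0.01 and that of chromosome 16 was 0.00.

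Medians over 50 neighbouring tested genes gave 15 stretches of at least 20 genes with a median of 0.4 log2 units or more in size. They held 1211 genes, of which 357 were in 6 higher and 854 in 9 lower stretches. The stretches were chosen by these same differences, so counts that lean to 1 direction are largely built into the choice. The longest was on chromosome 3, from base 51968510 to 172821474, where 259 of 341 genes were lower (76.0%) and 16 higher. A stretch of chromosome 16, from base 46407 to 2509560, had 64 of 79 genes higher and 1 lower. At the end of the long arm of the X chromosome, from base 149476990 to 155943769, 48 of 58 genes were lower and 3 higher. The positions are those of GENCODE release 29 on GRCh38. A stretch of 108 genes on chromosome 8 had a median of 0.77, with 87 higher and 9 lower. No gene copy number was measured, and its part in these stretches was not tested. When the median of its neighbours was removed from each gene, 6876 genes passed, and 70.7% of the 7699 calls were kept in the same direction. Several differences given above moved by more than 1.5 times under that removal. NUDT21 came to -0.48, PAK1 to -0.45, PAN2 to -0.48 and CNOT1 to -0.49, all further from 0. GSK3B came to -0.03 and no longer passed, while UQCRC1 at -0.16, DDX17 at 0.41, SQLE at 0.65 and NAPRT at 1.58 were nearer to 0 and still passed. The lower members came to 4 in the oxidative phosphorylation list, 13 in the mitochondrial ribosomal protein list, 3 in the heat shock list and 1 in the cholesterol list.

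**Figure D4:**
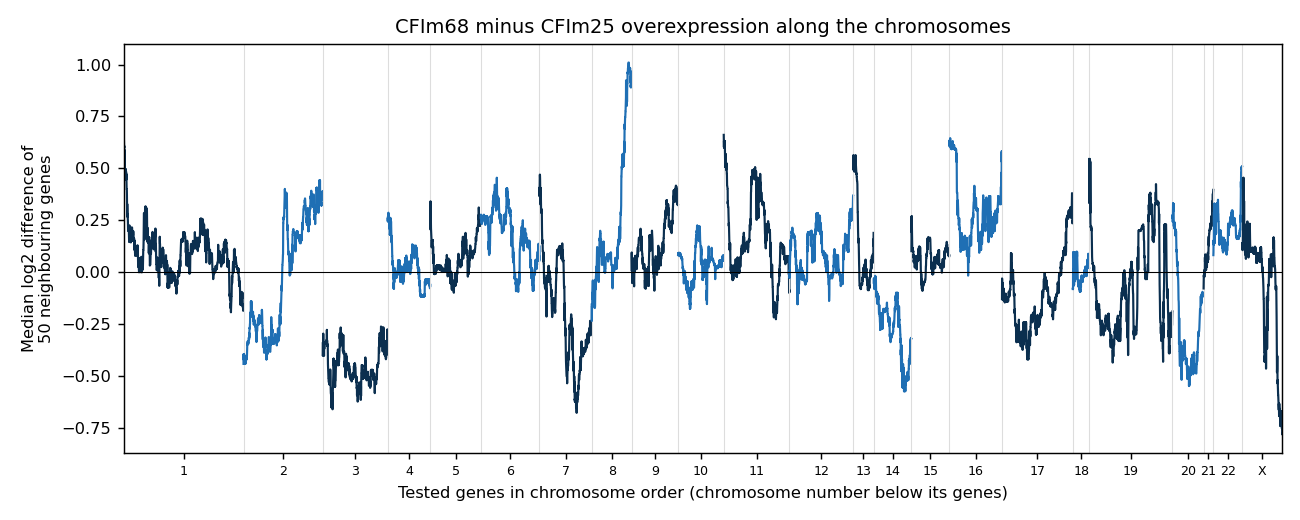
Running median of the log2 difference, CFIm68 minus CFIm25 overexpression, over 50 neighbouring tested genes, drawn in gene order with the chromosome number under its genes. Chromosome 3 lies under 0 along its length, with a median of -0.46 over its genes, and parts of chromosomes 1, 8, 11, 13 and 16 lie well above 0.

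Base composition of the transcripts moved with the difference. In the fifth of genes with the lowest GC content of the annotated transcript chosen for each gene (30.9% to 41.3%), 24.9% were higher and 36.0% lower. In the fifth with the highest GC content (58.9% to 74.7%), 46.0% were higher and 20.3% lower. Library GC bias was not measured and its part was not tested. The length of the annotated 3' UTR showed less: 35.0% of the fifth with the shortest and 29.7% of the fifth with the longest were higher, and their median GC content was 55.4% and 43.2%. The letters TGTA, the DNA form of the UGUA element, were searched on the sense strand in the last 100 bases of the annotated transcript. They occurred in 52.8% of higher genes, 55.7% of lower genes and 54.5% of all tested genes. Among genes differing at least 2-fold they occurred in 46.4% of the higher and 49.0% of the lower.

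The knockdown libraries set CFIm68 against CFIm25 in the opposite manipulation, which was made with siRNA. CFIm68 minus CFIm25 knockdown called 2929 genes (24.2%), of which 1340 were higher (11.1%) and 1589 lower (13.2%). Genes called in both contrasts numbered 2047, which is 26.6% of the overexpression calls and 69.9% of the knockdown calls. Over all tested genes the knockdown contrast called 24.2% and the overexpression contrast 63.7%, so both shares of overlap were near these. Of the 2047 genes, 1139 had the same direction and 908 the opposite direction (44.4%). Across the 12080 genes the log2 differences had a Pearson correlation of 0.02 and a Spearman correlation of 0.05, given as a description since genes are not independent replicates. The difference between the contrasts, tested as an interaction term in edgeR, passed for 6364 genes (52.7%). The log2 differences also had different spreads, with an SD over genes of 0.81 in overexpression and 0.29 in knockdown. Of the 1178 genes with a difference of at least 2-fold in overexpression, 977 were not past the test in knockdown and 22 were past it at 2-fold or more. Of the 33 ATF4 genes, 25 were lower and 0 higher in CFIm68 than in CFIm25 knockdown. Heat shock genes were higher in 2 and lower in 8 of 17, and oxidative phosphorylation genes higher in 0 and lower in 8 of 76. The CFIm25 knockdown group has only 2 libraries, and they can differ among the ATF4 genes. SLC7A11 was at 222 and 136 CPM in them, and at 69.3, 59.4 and 62.2 CPM with CFIm68 knockdown.

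**Figure D5:**
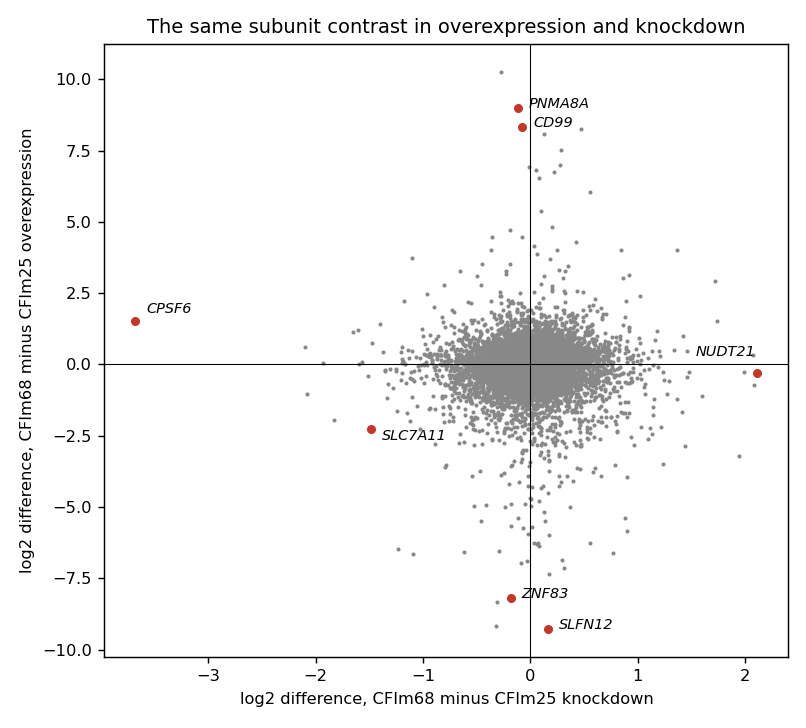
Log2 difference of each tested gene between CFIm68 and CFIm25 knockdown (x axis) and between CFIm68 and CFIm25 overexpression (y axis), with 7 named genes in red. CPSF6 and NUDT21 lie at opposite sides of the x axis, genes such as PNMA8A, CD99, ZNF83 and SLFN12 have large overexpression differences with knockdown differences near 0, and SLC7A11 is lower in both.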

How the data were processed

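RNA of 14 HEK 293 libraries was sequenced from stranded mRNA libraries, per the labels' protocols. Reads were trimmed with cutadapt 1.16 and aligned with STAR 2.7.1a to hg38, per the submitters' processing notes, while no label or header names the counting tool or how it treated strand. The authors deposited 1 table of raw read counts per gene. Groups and replicate numbers came from the sample titles.

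Genes passing edgeR's filterByExpr (4.0.16, minimum count 10, minimum total 15) were fitted over all 14 libraries with TMM scaling and 1 coefficient per group (glmQLFit, glmQLFTest). Benjamini-Hochberg adjustment was over all 12080 tested genes, with a threshold of 0.05. CPM are TMM-scaled. Standard errors are the log2 difference divided by the square root of the F statistic. Positions and transcripts came from GENCODE release 29. Symbols came from name tables first and from that release where these gave none, and 17708 of 18006 genes had a symbol. The fit was tested on simulated counts. Alternatives were other scaling, filters, tools (DESeq2 1.42.0, limma 3.58.1), the 6 libraries alone, a replicate block, each library left out, and removal of the median of 50 neighbouring genes.

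The comparison, the gene lists and their members were chosen with earlier results of these data known. The genes named are CPSF6, NUDT21 and CPSF7, the largest differences in each direction (15 genes each, averaging 5 CPM or more, without overlap of the libraries), and the 2 higher and 2 lower members of each list with the smallest adjusted p. Other members are named to say what a count holds, and were chosen after their values were seen. Members of lists that were not tested are not analysed here. The values of 1 tested list member are not reported here. Intervals and floors cover counting error only.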

Additional observations from a re-analysis of the deposited data

Results flagged for a closer look

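For 32 of the 33 subunit genes and genes with the largest differences, the CFIm68 against CFIm25 difference was not the same in overexpression as in knockdown, by an interaction term in edgeR's quasi-likelihood test (Benjamini-Hochberg adjusted p from 3.6e-29 for CPSF6 to 4.8e-06 for INPP5D). The value given for each is the overexpression log2 difference minus the knockdown log2 difference. The contrasts share no library with each other. The genes were chosen for their overexpression difference, apart from the subunits, so a large value is partly built into the choice.

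The subunit genes had opposite signs in the manipulations. CPSF6 differed by 5.21, from 1.53 in overexpression and -3.68 in knockdown, and NUDT21 by -2.40, from -0.29 and 2.11. These are the genes that were overexpressed or silenced.

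Among the lower genes, SLFN12 differed by -9.44, ZNF83 by -8.01, PDGFD by -7.52, TPTE by -7.14 and ZNF667 by -6.44. Their knockdown differences were between -0.19 and 0.29. The sizes for TPTE and SLFN12 rest on 4 reads and 1 read in the CFIm68 overexpression libraries: without the library that held them, the overexpression difference was -10.76 instead of -6.85 for TPTE and -11.45 instead of -9.28 for SLFN12. PCDH19 differed by -5.26, ZNF816 by -4.98, ZNF468 by -4.88, ZNF808 by -4.86, FAM184B by -4.71 and ZNF681 by -4.68. STS differed by -4.24, REC8 by -4.19, RAB39B by -4.00 and AMBN by -3.60.

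Among the higher genes, PNMA8A differed by 9.10, CD99 by 8.41, SERPINB9 by 6.53, IFI16 by 4.84 and STAT6 by 4.53. CXXC4 differed by 4.38, GSTP1 by 4.11, TMEM200B by 3.80, MXRA8 by 2.96 and CTSO by 2.81. NAPRT differed by 2.59, ADAMTS2 by 2.49, CACNA1H by 2.35 and SFRP2 by 2.22. INPP5D differed by 1.34 and was the higher gene with the largest knockdown difference in the same direction, 0.89.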

How the results depend on the processing

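The counts of genes higher and lower, at least 2-fold higher and lower, and with unequal differences in overexpression and knockdown stayed within 1.5 times of the reported counts in all 58 combinations of count and alternative. Leaving out each of the 6 libraries in turn gave 3677 to 3823 higher, 3459 to 3691 lower, 389 to 490 at least 2-fold higher and 676 to 733 at least 2-fold lower genes. DESeq2 called 7411 genes and limma-voom 7652. With the replicate number as a block, 7921 genes passed and 99.7% of the calls were kept in the same direction. Same-numbered libraries of the groups had deviations that correlated at 0.171, 0.0242 and 0.113, and differently numbered ones at -0.184 to 0.0838. With 3 libraries in each group, these values cannot settle whether the numbers pair the libraries. The main fit did not pair them, and the block is the alternative. CPSF7 was the named gene that passed only with the block or without single libraries. Removing the medians of neighbouring genes reversed 6 named genes: NDUFA5 (0.09, edgeR adjusted p = 0.33), RPL14 (0.12, adjusted p = 0.03), CPSF7 (-0.05, adjusted p = 0.43), RPL8 (-0.32, adjusted p = 1.2e-05), CPSF1 (-0.32, adjusted p = 1.5e-05) and CYC1 (-0.02, adjusted p = 0.79). All but CPSF7 lie in stretches of genes that moved together, and the cause was not tested. Over all alternatives, besides NDUFA5 and CYC1, 32 values of named genes lost the call in the same direction, 3 gained it, and 43 list counts moved by over 1.5 times, most of them counts of few genes. Read depth limits genes with few reads, whose ratios have wide intervals.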

Other observations

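Some gene groups had members that moved in opposite directions between the overexpression groups, as tested genes did at large. Over all tested genes 32.9% were higher and 30.8% lower, so members going both ways are not particular to these groups. Of 29 tested HOX genes, which set position along the body axis, 13 were higher in CFIm68 overexpression, 9 lower and 7 not past. HOXA13 was at 75.2, 82.2 and 69.4 CPM against 266, 248 and 207 CPM with CFIm25 (-1.67 ± 0.09, edgeR adjusted p = 1.9e-15). HOXB6 was at 68.0, 63.8 and 70.0 CPM against 30.1, 26.9 and 27.5 CPM (1.25 ± 0.07, edgeR adjusted p = 1.1e-15), and shares exonic bases with other genes on both strands. Of 13 tested imprinted genes, 6 were higher, 3 lower and 4 not past. GRB10, an adaptor of growth factor receptors, was lower by -0.65 ± 0.06, and PHLDA2, at 2.60, 1.84 and 2.26 CPM against 0.472, 0.792 and 0.869 CPM, was higher by 1.68 ± 0.28. Of 21 cadherin, protocadherin, teneurin and other adhesion genes, 5 were higher, 9 lower and 7 not past. CNTN1, a contactin, was at 30.2, 30.5 and 28.8 CPM against 9.52, 7.69 and 8.64 CPM (1.78 ± 0.08), and L1CAM, which shares exonic bases with other genes on both strands, was lower by -1.23 ± 0.16. The L1CAM difference came to -0.60 with the medians of neighbouring genes removed. With the 6 overexpression libraries fitted alone, 3 imprinted genes were higher.

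The counts of the other groups are to be read against the 32.9% higher and 30.8% lower over all tested genes. Of 14 tested histone genes, 11 were higher, 1 lower and 2 not past (median 0.35), and H2AZ2 was the lower one (-0.34 ± 0.05). Transcripts of replication-dependent histone genes mostly lack a poly(A) tail, so poly(A)-selected libraries hold few of them. Of 39 core spliceosome and SR protein genes, 25 were higher, 9 lower and 5 not past (median 0.20), with SRRM2 higher by 0.92 ± 0.08. Of 36 lysosome and V-ATPase genes, 20 were higher, 7 lower and 9 not past (median 0.22), with the sialidase gene NEU1 at 151, 165 and 174 CPM against 89.4, 93.1 and 84.8 CPM. Of 22 glycan branching and sialylation genes, 11 were higher, 3 lower and 8 not past (median 0.27), with MGAT1 higher by 0.86 ± 0.06 and FUT8 lower by -0.52 ± 0.07. Of 28 neuronal and secretory vesicle genes, 7 were higher, 13 lower and 8 not past (median -0.20), and without CFIm68 library 2 the higher ones numbered 4. SYP, synaptophysin, was at 7.93, 9.97 and 10.3 CPM against 31.1, 31.6 and 31.7 CPM (-1.74 ± 0.10). Of 26 interferon and antigen presentation genes, 5 were higher, 9 lower and 12 not past (median -0.14). OAS3, an antiviral synthetase, was at 4.74, 5.18 and 5.27 CPM against 22.5, 24.5 and 22.3 CPM, with controls at 14.6, 14.9 and 12.9 CPM. Of 29 hypoxia and glycolysis genes, 6 were higher, 14 lower and 9 not past (median -0.19), and without CFIm25 library 3 the higher ones numbered 3. Of 138 long intergenic noncoding RNAs, 28 were higher and 48 lower, with a median of -0.17. The lower shares of the interferon list (34.6%) and of these noncoding RNAs were near that of all tested genes. Their higher shares were under the 32.9% over all tested genes, at 19.2% in the interferon list and 28 of 138 noncoding RNAs. With the medians of neighbouring genes removed, H2AZ2 came to -0.17, SRRM2 to 0.59, NEU1 to 0.49 (from 0.87) and FUT8 to -0.24, all still past the test, and the lower lysosome genes numbered 3, the higher vesicle genes 2 and the higher hypoxia genes 2.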
